A study of Mus musculus with 27 samples.

Results

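Mouse lacrimal glands taken 3 days after intraglandular IL-1α were compared with those taken on day 2. The comparison rested on 6 of the 27 samples of the series, the 3 mice of day 3 and the 3 mice of day 2, and on the 13818 of 43346 genes that passed a filter on low values. The samples are total RNA of whole lacrimal gland, the gland that makes the watery part of tears, measured by RNA-Seq. All mice were wild type BALB/c, 8 to 10 weeks old by the sample labels, while the study's methods give an older age range. Each of these 6 mice had received 1 µg IL-1α, an inflammatory cytokine whose injection is the acute injury of the model. Each library came from 1 mouse, so replicates are separate animals. The levels in uninjured glands (day 0, n = 3), in glands of days 1 and 5 (n = 3 each) and in the 2 libraries of day 4 that entered the fit are given where they place a change. The comparison asks whether the inflammatory response had declined by day 3. The libraries held 9549000 to 10480000 estimated counts on day 3 and 10900000 to 11970000 on day 2. All levels are the deposited normalized values, and all changes are log2 differences of (value + 1), day 3 minus day 2, with their standard error (SE). A gene was said to rise or fall only at an adjusted p of at most 0.05 (limma) and a change of at least 2-fold.

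IL-1α binds the IL-1 receptor and activates the transcription factor NF-κB, which switches on chemokines, cytokines and acute phase genes in epithelium and stroma. CXC chemokines and the growth factor G-CSF bring neutrophils into a tissue, and CC chemokines bring monocytes that become macrophages. Interferons act through STAT and IRF factors on a separate set of genes with antiviral products. Acinar cells, which make up most of the gland, secrete tear proteins.

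Several features set libraries apart and move with the comparison. Zhx2, a transcriptional repressor, had 7.43, 10.0 and 8.16 normalized counts on day 3, against 77.1, 75.1 and 72.9 on day 2, and 79.0, 115 and 133 in uninjured glands. The change of Zhx2 was -3.00 (SE 0.16), and the 3 mice of day 3 lay below the 23 other libraries of the table. A low Zhx2 level is known as a trait of the BALB/cJ substrain. Of 4 tested members of a list of Zhx2 and its known targets, only Zhx2 fell and none rose, with a median change of -0.70. Whether the mice of day 3 differed in substrain was not tested. Of the genes called as changed, 36 lay above and 17 below the 23 others in all 3 mice of day 3. Isoc2b had 34.4, 31.1 and 29.6 on day 3, against 0.714, 2.50 and 1.81 on day 2, and Shisa7 had 122, 87.8 and 93.8, against 11.4, 7.51 and 6.02. Mup10, a major urinary protein gene, was listed at 0 in the 3 mice of day 3, against 24.7, 20.9 and 45.4 on day 2. Gm14743, a predicted gene on chromosome X, took 0.461 to 1.05% of the normalized total on day 3, against 8.86 to 12.1% on day 2. Because these differences are shared by all mice of day 3, a difference between the animals of that day and those of the other days cannot be told apart from a difference between days.

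Muscle and salivary transcripts also differed. Transcripts of skeletal muscle, added up over a list of 30 genes, summed to 271, 92.5 and 98.4 on day 3, against 3796, 4439 and 13217 on day 2 and 883, 109 and 99.9 in uninjured glands. Bpifa2, a salivary protein gene, had 40.0, 1232000 and 23799 on day 3, against 25434, 937 and 33.1 on day 2. With the amylase gene Amy1 it held 16.01% of the normalized total in day 3 replicate 2, and at most 0.458% in the other 5 libraries. No member of the salivary list passed the test (0 of 13). Day 3 replicate 1 stood below the other mice of day 3 in genes of mitosis, with a mean of -0.18 over the list on the log2 scale relative to day 0, against 1.83 and 1.95. Day 2 replicate 3, which the study left out of its own tests, carried the most muscle RNA and the lowest secretory transcripts of its day. The counts given first below include it. Those without it follow for the whole comparison and for some lists, and for other lists whose counts moved they are given at the end.

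**Figure D1:**
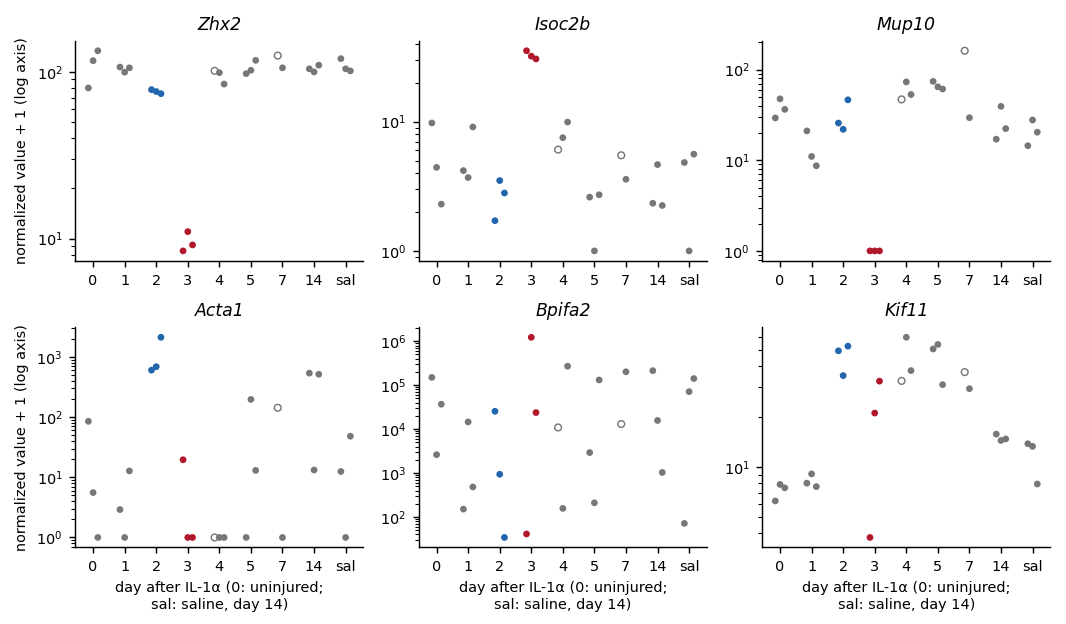
Normalized value + 1 (log axis) of 6 genes in each library by day after IL-1α, with uninjured glands at 0 and saline at day 14 as sal; red points are day 3, blue points day 2, grey points other days, and open circles the 2 libraries of days 4 and 7 that were left out of the fit. Zhx2, Isoc2b and Mup10 place the 3 mice of day 3 apart from all other libraries, Acta1 (muscle) is high in the 3 mice of day 2, Bpifa2 (salivary) varies within days, and Kif11 (mitosis) is low in day 3 replicate 1.

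Between day 3 and day 2, 1277 genes changed (9.24% of those tested), of which 147 were higher on day 3 and 1130 lower. This is 1.06% of the tested genes higher and 8.18% lower, and 88.5% of the changes were downward. The median change of all tested genes was -0.001. On day 3, 380 genes were at least 4-fold lower and 43 at least 4-fold higher. The 3 mice of day 3 lay outside the range of the 3 mice of day 2 for 1243 of the 1277 genes. Over all tested genes this held for 37.4%, with day 3 below for 20.3% and above for 17.1%. The calls rest on the same 6 libraries, so the count of 1243 adds no separate support. These shares of all tested genes are the background for every list count below. When the 3 libraries that the study excluded were left out, which removes day 2 replicate 3, 112 genes were higher and 799 lower. With libraries scaled to their totals instead, which moves the median gene by -0.35, 80 were higher and 1898 lower.

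**Figure D2:**
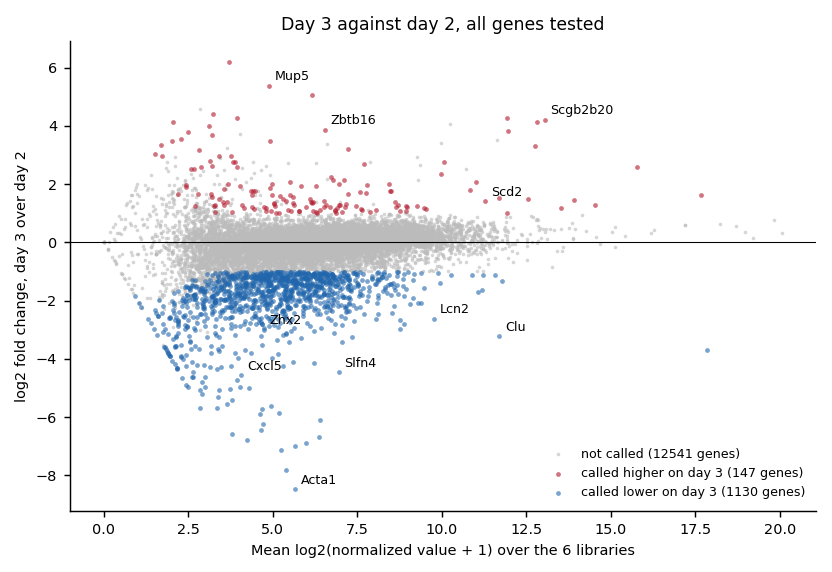
Each point is 1 of 13818 tested genes, with its mean log2(normalized value + 1) over the 6 libraries on the x axis and the log2 fold change of day 3 over day 2 on the y axis; red points were called higher on day 3 (147) and blue points lower (1130). Of the labelled genes, Zbtb16, Mup5, Scgb2b20 and Scd2 lie above 0 and the others below.

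Most of the losses brought transcripts back towards the level of uninjured glands. Of the 1130 genes that were lower on day 3, 1022 had been higher on day 2 than on day 0. Over the 1130 genes the median log2 difference from day 0 was 0.43 on day 3 and 2.21 on day 2. On day 3, 962 of them did not differ from day 0 by the test, 146 were still higher and 22 were lower. Over all tested genes, 2.62% were higher than day 0 on day 3 and 14.0% on day 2, and 0.579% were lower on day 3 and 1.6% on day 2. Of the 147 genes that were higher on day 3, 56 had been lower on day 2 than on day 0, and 38 were above day 0 on day 3. Both comparisons with day 0 use its 3 libraries and the 6 libraries compared here, so these counts place the changes and add no separate test.

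Genes that attract and mark neutrophils had the largest median falls of the immune lists. Of 13 tested members of a list of neutrophil chemokines, their receptor and G-CSF genes, 11 fell and none rose, with a median change of -2.62. This is 84.6% of the list, against 8.18% of all tested genes. Cxcl5, a neutrophil chemokine of epithelium, had 0.929, 1.11 and 9.18 on day 3, against 89.2, 55.9 and 107 on day 2, a change of -4.57 (SE 0.64, adjusted p = 2.8e-05). Its uninjured level was 7.02, 3.43 and 1.30, and the mice of day 3 overlapped it. Cxcr2, the receptor of these chemokines on neutrophils, had 7.43, 2.22 and 5.10 on day 3, against 68.5, 55.0 and 115 on day 2. Csf3r, the G-CSF receptor, had 28.8, 26.7 and 36.7, against 246, 173 and 317. It remained above the 0, 3.43 and 5.20 of uninjured glands by 3.38 (SE 0.48). Csf3, the gene of G-CSF itself, and Ppbp, a platelet chemokine gene, were listed at 0 in all mice of day 3, with 2.85, 8.34 and 5.42 for Csf3 and 11.4, 9.17 and 15.1 for Ppbp on day 2.

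All 17 tested neutrophil markers fell, with a median of -2.72, where 8.18% of all tested genes fell. S100a8 and S100a9 encode the subunits of calprotectin, the main cytosolic protein of neutrophils. S100a9 had 14.9, 17.8 and 18.4 on day 3, against 335, 278 and 328 on day 2, and its change was -4.13 (SE 0.71, adjusted p = 0.00021). S100a8 had 13.01, 5.56 and 7.14, against 169.9, 151 and 192. Slfn4, a schlafen gene of activated myeloid cells, had 12.1, 45.3 and 29.6, against 555, 456 and 780.2, a change of -4.46 (SE 0.60). Clec4e, a C-type lectin receptor, had 7.43, 0 and 2.04, against 40.0, 26.7 and 44.0. All mice of day 3 lay below those of day 2 for each of the 17 markers, against 20.3% of all tested genes. Of the 17 markers 6 were still above day 0 on day 3, against 2.62% of all tested genes. The granule enzyme genes Mpo and Elane of immature neutrophils did not pass the filter. In whole glands, fewer cells of a type and less RNA per cell cannot be told apart.

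The promoters of these chemokine genes are shown because 3 of the 9 neutrophil chemokine list members with a RefSeq promoter window hold the letters of an NF-κB site, GGG and TTTCC with any 2 bases between them, on either strand, as do 1.98% of all tested genes with a window. Windows run from 250 bases before to 50 after a transcript start. Of the genes that fell, which include members of this list, 3.36% hold these letters. Stretches of 100 bases from RefSeq (GRCm38.p6), read along the gene 5′ to 3′ with each match in capitals, were taken for Cxcl1 and Cxcl2 and for the acute phase gene Serpina3n:
Cxcl1 (chr5:90891111-90891210, plus strand): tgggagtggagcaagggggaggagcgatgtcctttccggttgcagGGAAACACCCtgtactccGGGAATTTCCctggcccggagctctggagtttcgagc
Cxcl2 (chr5:90903757-90903856, plus strand): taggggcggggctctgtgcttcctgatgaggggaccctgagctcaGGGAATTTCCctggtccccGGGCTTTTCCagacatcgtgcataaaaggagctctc
Serpina3n (chr12:104406492-104406591, plus strand): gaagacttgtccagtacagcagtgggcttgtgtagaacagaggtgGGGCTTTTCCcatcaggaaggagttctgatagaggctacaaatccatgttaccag
The stretches of Cxcl1 and Cxcl2 hold 2 matches each. A match is a description of the letters and not a measured binding site. Cxcl1 had 1.86, 13.3 and 3.06 on day 3, against 47.8, 37.5 and 33.7 on day 2 (change -2.87, SE 0.55). Cxcl2 had 0, 1.11 and 0, against 13.3, 5.00 and 3.61 (change -2.52, SE 0.69). Both were named here for their promoters, after their values had been seen.

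Of 12 tested members of the IL-1 family, 7 fell (58.3%, against 8.18% of all tested genes) and 1 rose (8.33%, against 1.06%). The median change was -1.72. Il1b, the main secreted IL-1 of phagocytes, had 11.2, 22.2 and 15.3 on day 3, against 92.8, 84.2 and 86.7 on day 2 (change -2.42, SE 0.35, adjusted p = 3.3e-05), and its uninjured level was 5.26, 4.57 and 7.80. Il33, an alarmin of stroma and epithelium, had 52.0, 72.3 and 107, against 273, 261 and 445, and the day 3 values lay around the 84.2, 68.6 and 75.4 of uninjured glands. Some inhibitors fell as well. Il1rn, the IL-1 receptor antagonist, had 5.58, 10.0 and 9.18, against 42.1, 30.9 and 28.3, and Il18bp, which binds IL-18, had 7.43, 7.78 and 14.3, against 44.3, 36.7 and 54.2. Il1f9 (IL-36γ) had 4.39, 1.11 and 0, against 17.7, 9.17 and 14.2. The member that rose was Il1f5, the IL-36 receptor antagonist, with 8.36, 14.5 and 7.14, against 1.43, 1.67 and 2.41 (change 1.91, SE 0.46), and 12.3, 8.00 and 3.90 in uninjured glands.

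Of 22 tested genes of the NF-κB pathway and its feedback inhibitors 7 fell and none rose, with a median of -0.82. This is 31.8% of the list, against 8.18% of all tested genes. Tnf, the cytokine TNF-α, had 6.50, 4.45 and 2.04 on day 3, against 17.8, 21.7 and 16.9 on day 2 (change -1.98, SE 0.43). Bcl3, a nuclear partner of NF-κB, had 5.58, 14.5 and 11.2, against 41.4, 42.5 and 66.9. Nfkbia, the first feedback inhibitor of the pathway, had 189, 226 and 221, against 256, 263 and 272, a change of -0.32 (SE 0.13) that did not pass the test (adjusted p = 0.086). Of 10 genes of the IL-6 family and STAT3, 5 fell, and 3 without day 3 replicate 1 or without day 3 replicate 3. Socs3, the inhibitor induced by STAT3, had 22.3, 18.9 and 31.6, against 95.6, 77.6 and 169 (change -2.14, SE 0.35). Osmr, a receptor chain for oncostatin M, had 38.1, 61.1 and 52.0, against 138, 119 and 189.

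Monocyte chemokines and macrophage markers fell. Of 14 tested CC chemokine and receptor genes 11 fell, with a median of -2.08, where 8.18% of all tested genes fell. All mice of day 3 lay below those of day 2 for each of the 14, against 20.3% of all tested genes. Ccl2, which recruits monocytes, had 5.58, 6.67 and 17.3 on day 3, against 89.9, 50.04 and 56.6 on day 2 (change -2.73, SE 0.51). Ccr1, a receptor of monocytes and neutrophils, had 18.6, 11.1 and 17.3, against 141, 98.4 and 167. Of 28 monocyte and macrophage markers, 27 fell, with a median of -1.97, and 13 were still above day 0 on day 3. Msr1, a scavenger receptor, had 18.6, 15.6 and 17.3, against 191, 168 and 171 (change -3.29, SE 0.41, adjusted p = 6.7e-06). Chil3, a marker of inflammatory monocytes, had 5.58, 2.22 and 5.10, against 72.1, 50.9 and 71.7. Adgre1, which encodes the macrophage marker F4/80, fell less, to 137, 102.3 and 93.8 on day 3, against 311, 269 and 330.1 on day 2 and 40.4, 45.7 and 32.5 in uninjured glands. Mertk, a receptor for uptake of dying cells, had a change of -0.67 (SE 0.26, adjusted p = 0.062).

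Receptors and effectors of phagocytes followed. All 9 Fc receptors and activating C-type lectins fell (median -1.90), where 8.18% of all tested genes fell. Fcgr1, the high-affinity IgG receptor, had 19.5, 26.7 and 30.6 on day 3, against 223, 179 and 243 on day 2. Of 15 genes of the inflammasome and the oxidative burst, 14 fell (median -1.84). Mefv, which encodes the inflammasome sensor pyrin, had 2.79, 1.11 and 2.04, against 38.5, 30.9 and 45.2 (change -3.74, SE 0.44). Of 10 leukocyte-endothelium adhesion genes, 8 fell, and Selp (P-selectin) had 12.1, 10.0 and 16.3, against 69.7, 74.0 and 99.5. Of 11 prostanoid and leukotriene genes, 4 fell, among them Alox5ap, the partner of 5-lipoxygenase, with 38.1, 33.4 and 33.7, against 176, 188 and 238. Of 14 complement genes, 7 fell, and 11 without day 3 replicate 3. Cfb, factor B of the alternative pathway, had 93.6, 179 and 229.9, against 721, 793 and 1087.

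**Figure D3:**
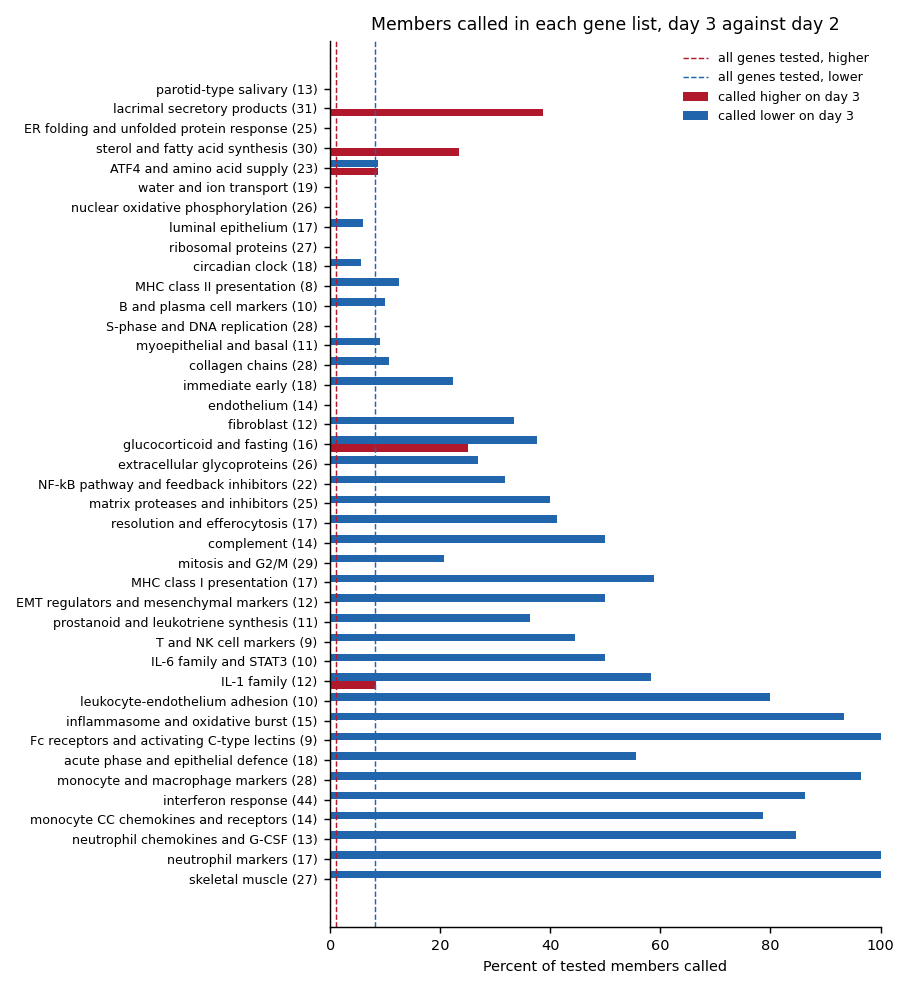
Percent of the tested members of each gene list that were called higher (red) or lower (blue) on day 3 than on day 2, with the number tested in brackets, lists ordered by median change and the 2 dashed lines at the share of all tested genes (1.06% higher, 8.18% lower). Neutrophil, macrophage, Fc receptor, interferon and muscle lists lie far right of the blue line, and secretory and sterol lists right of the red line.

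Interferon-stimulated genes fell, and none differed from day 0 by the test on day 3. Of 44 tested members, 38 fell and none rose (86.4%), with a median change of -2.03. The median relative to day 0 was 0.11 on day 3 and 2.16 on day 2. Zbp1, a sensor of nucleic acid, had 11.2, 14.5 and 14.3 on day 3, against 113, 94.2 and 167 on day 2 (change -3.10, SE 0.31, adjusted p = 5.9e-07), with 17.5, 14.9 and 6.50 in uninjured glands. Irf7, the factor that amplifies the response, had 40.0, 117 and 59.1, against 436, 341 and 528. Mx1, an antiviral GTPase, had 3.72, 14.5 and 11.7, against 78.5, 45.0 and 86.9. Within day 3, replicate 2 stood highest for Irf7 and Mx1, and its mean over the list was 0.71 relative to day 0, against -0.37 and -0.07 in the other 2 mice. Cmpk2, a nucleotide kinase gene next to Rsad2, had 18.6, 27.8 and 25.5, against 83.5, 50.04 and 75.9 on day 2, and lay below the 47.4, 41.2 and 37.7 of uninjured glands as well.

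The promoters of interferon genes are shown because many of them hold the same sequence. The list was made of genes known to respond to interferon, so a high share follows from its choice. The interferon-stimulated response element, searched as GAAA, any 2 bases and GAAA on either strand, occurs in a window of 22 of the 33 list members with a RefSeq window (66.7%). It occurs for 3.89% of all tested genes with a window and 10.2% of those that fell. It occurs in 3.44% of all windows of the same length. The genes that fell include members of the list, so their 10.2% is not separate from the share of the list. In the 4 stretches below (RefSeq, GRCm38.p6, 100 bases, 5′ to 3′ along the gene) matches are in capitals, and in Isg15 3 matches overlap:
Isg15 (chr4:156200842-156200941, minus strand): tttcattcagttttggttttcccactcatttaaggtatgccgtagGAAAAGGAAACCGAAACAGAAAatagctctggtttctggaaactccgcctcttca
Oas3 (chr5:120777680-120777779, minus strand): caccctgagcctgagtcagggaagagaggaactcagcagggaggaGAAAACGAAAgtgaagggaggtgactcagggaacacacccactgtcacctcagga
Rsad2 (chr12:26456518-26456617, minus strand): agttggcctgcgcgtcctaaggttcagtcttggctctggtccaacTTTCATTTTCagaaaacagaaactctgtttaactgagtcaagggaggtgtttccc
Ifit1 (chr19:34640740-34640839, plus strand): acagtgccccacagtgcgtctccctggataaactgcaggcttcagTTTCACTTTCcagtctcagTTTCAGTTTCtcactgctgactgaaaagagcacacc
Isg15, a ubiquitin-like protein, had 6.50, 24.5 and 9.18 on day 3, against 80.7, 62.6 and 99.98 on day 2 (change -2.69, SE 0.32). Oas3, an oligoadenylate synthase, had 7.43, 14.5 and 6.12, against 64.2, 45.0 and 101.8 (change -2.79, SE 0.49). Rsad2, which encodes viperin, had 7.43, 12.2 and 7.14, against 72.8, 37.5 and 77.7 (change -2.65, SE 0.29). Ifit1, a binder of foreign RNA ends, had 11.2, 28.9 and 12.2, against 105, 64.1 and 95.1 (change -2.37, SE 0.32). The day 3 values of all 4 genes overlapped those of uninjured glands. Isg15, Rsad2 and Ifit1 were picked for their promoters after their values had been seen.

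Of 17 genes of MHC class I presentation 10 fell and none rose (median -1.15), where 8.18% of all tested genes fell. Without day 3 replicate 3, 6 fell. Tap1, the peptide transporter, had 40.9, 91.4 and 30.6 on day 3, against 148, 113 and 179 on day 2. Tapbp (tapasin) had 149.6, 246 and 153, against 413, 369 and 496 (change -1.24, SE 0.16). Here too day 3 replicate 2 stood highest of its day. Of 8 genes of MHC class II presentation 1 fell (12.5%, near the share of all tested genes), and the median change was -0.20. The difference between the classes was not tested.

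Acute phase genes fell, and 5 were still above uninjured glands on day 3. Of 18 tested members 10 fell and none rose (median -1.90). Clu, the extracellular chaperone clusterin, had 1415, 1168 and 782 on day 3, against 11582, 7700.0 and 11876 on day 2 (change -3.22, SE 0.30, adjusted p = 3e-07), and 258, 263 and 329 in uninjured glands. Lcn2, an iron-binding defence protein, had 454, 547 and 172, against 2799, 1945 and 1862 (change -2.62, SE 0.35), and still exceeded day 0 by 3.10. Saa3, a serum amyloid A made outside the liver, had 92.9, 161 and 242, against 1170.5, 1012 and 1477, and exceeded day 0 by 5.50. Saa1 had 0, 0 and 1.02, against 27.0, 14.2 and 19.3. Serpina3n, a protease inhibitor, had 43.7, 17.8 and 78.5, against 473, 309 and 541.

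**Figure D4:**
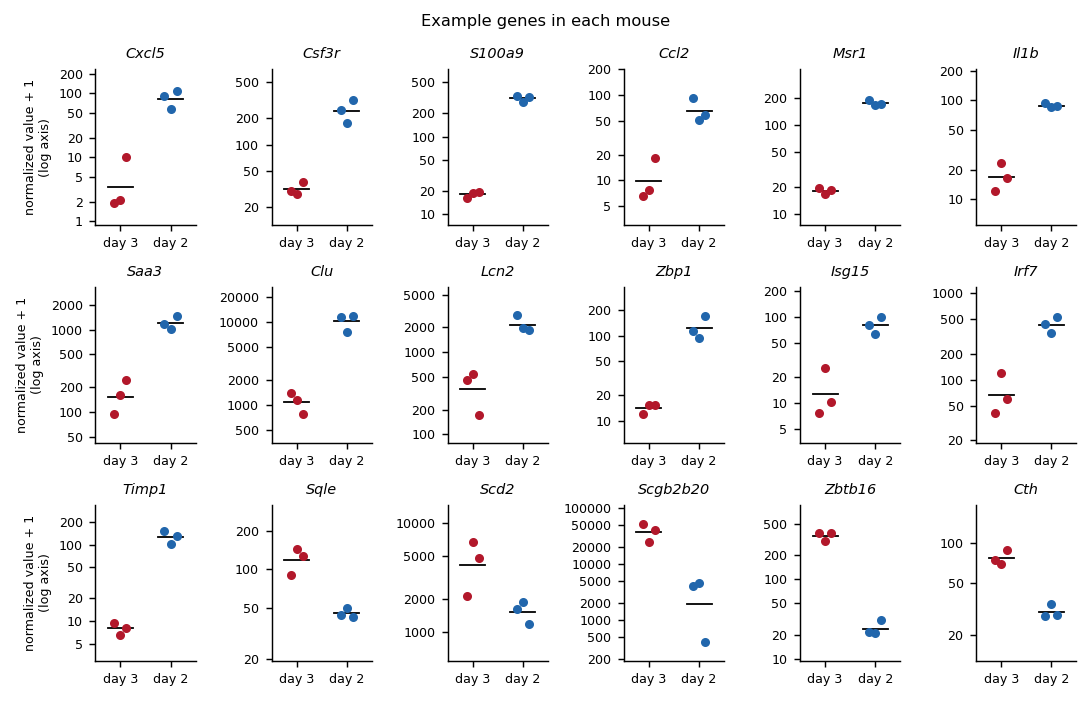
Normalized value + 1 (log axis, own scale in each panel) of 18 genes in the 3 mice of day 3 (red, left) and the 3 mice of day 2 (blue, right), with a line at the mean of the log2 values. In each panel the mice of the groups do not overlap; Sqle, Scd2, Scgb2b20, Zbtb16 and Cth are higher on day 3 and the other 13 genes lower.

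Matrix genes fell in part, and their counts leaned on single libraries. Of 25 tested matrix proteases and inhibitors 10 fell (median -0.87), and 5 fell without day 2 replicate 3 or without day 3 replicate 1, and 6 without day 2 replicate 1. Timp1, an inhibitor of metalloproteinases, had 8.36, 5.56 and 7.14 on day 3, against 148, 99.3 and 130.1 on day 2 (change -3.98, SE 0.69). Mmp3 (stromelysin-1) had 50.2, 62.3 and 85.7, against 353, 262 and 393, and lay below the other libraries of the table, uninjured glands included. Of 26 extracellular glycoproteins 7 fell (median -0.62). Thbs1, thrombospondin-1, had 43.7, 56.7 and 70.4, against 343, 286 and 404, and Tnc, tenascin-C, had 15.8, 8.89 and 15.3, against 147, 92.6 and 139.7. Of 28 collagen chains 3 fell (10.7%, near the 8.18% of all tested genes), none without day 2 replicate 3 and 1 without day 3 replicate 1. Without day 3 replicate 3 the count was 6, and without day 2 replicate 2 it was 5. Col1a1 had 303, 516 and 635, against 931, 643 and 1480.4, and averaged 1821 and 3346 on days 4 and 5.

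Mesenchymal genes fell as well. Of 12 regulators and markers of epithelial-mesenchymal transition 6 fell (median -1.18). Vim, vimentin, had 325, 376 and 568 on day 3, against 1108, 1083 and 1471 on day 2 (change -1.55, SE 0.23). Zeb2, a transcriptional repressor, had 64.1, 64.5 and 96.8, against 219, 145 and 254, and Hmga1, a chromatin protein, had 9.77, 14.0 and 7.09, against 50.02, 34.2 and 43.6. Snai1 had 0.929, 3.34 and 2.04, against 11.4, 5.00 and 13.2. Tgfb1 had 23.2, 42.2 and 29.6, against 99.2, 90.1 and 104, and Has2, a hyaluronan synthase, 11.2, 7.78 and 9.18, against 38.5, 19.2 and 28.9. Of 12 fibroblast markers 4 fell, none without day 3 replicate 1 and 2 without day 2 replicate 3. Vim and Zeb2 are also made by leukocytes, whose markers fell in the same libraries, and their part in these changes was not tested.

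The mice of day 3 differed among themselves in proliferation genes. Of 28 genes of S phase none passed the test in either direction by limma, with a median of -0.27. Of 29 genes of mitosis 6 fell (median -1.04), but none without day 3 replicate 1 or without day 2 replicate 3, and 2 without day 2 replicate 1 or replicate 2. All 29 changes were below 0. All mice of day 3 lay below those of day 2 for 11 of the 29, against 20.3% of all tested genes. The mean over the mitosis list relative to day 0 was -0.18, 1.83 and 1.95 on day 3, against 2.256, 2.035 and 2.385 on day 2. Kif11, a spindle motor, had 2.79, 20.0 and 31.6 on day 3, against 48.5, 34.2 and 51.8 on day 2. Mki67 (Ki-67) had 49.2, 195 and 222, against 208, 200.2 and 229, and its change of -0.71 (SE 0.39) was not significant (adjusted p = 0.20). Day 3 replicate 1 was near the 54.4, 44.6 and 54.6 of uninjured glands, and the other 2 mice were near day 2.

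The largest losses of all were in genes of skeletal muscle. The 10 genes with the largest falls of all tested were Acta1, Myh1, Tnnt3, Ttn, Myh4, Tnnc2, Atp2a1, Pvalb, Mylpf and Tnni2, which encode sarcomere, calcium pump and calcium buffer proteins. All 27 tested members of the list fell, with a median of -4.62. Many of these members, Ryr1 and Des among them, are muscle genes that the study grouped from these same data. It grouped them for being raised on day 2 and at normal levels on days 1 and 3. Their fall follows from that choice, so the count adds no separate support. Acta1, skeletal actin, had 18.6, 0 and 0 on day 3, against 602, 688 and 2124 on day 2 (change -8.48, SE 1.83), and Ryr1, the calcium release channel, had 5.58, 2.22 and 1.02, against 121, 128 and 397 (change -5.72, SE 1.08). Des (desmin) had 13.01, 11.1 and 8.16, against 134, 133 and 444. The list summed to 0.000871 to 0.00278% of the normalized total on day 3, against 0.0444 to 0.201% on day 2, and muscle transcripts were also high in some libraries of other days. The mean over the list relative to day 0 was 3.82 to 5.14 on day 2, 3.44 and 3.76 in day 14 replicates 1 and 3, 2.64 in day 7 replicate 1, 1.98 in day 5 replicate 2 and 1.59 in uninjured replicate 1. Whether muscle beside the gland was taken with it was not tested.

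Secretory transcripts rose in part. Of 31 tested lacrimal secretory products 12 rose and none fell (38.7%, against 1.06% of all genes), with a median change of 1.19. Their median relative to day 0 was -1.39 on day 2 and -0.43 on day 3, when 3 were still below day 0 and 1 above. The list summed to 3735100, 2918300 and 3853500 on day 3, against 2743000, 2865700 and 1761100 on day 2. In uninjured glands it summed to 7955400, 5994800 and 5787900. Scgb2b20 and Scgb1b20, neighbouring secretoglobin genes on chromosome 7 whose products are small proteins of tears and saliva, had the largest changes of the list. Scgb2b20 had 50265, 24087 and 39522 on day 3, against 3976, 4571 and 408 on day 2 (change 4.22, SE 0.81, adjusted p = 0.00057), and 22184, 55548 and 14840.0 in uninjured glands. Scgb1b20 had 42214, 21218 and 31440.0, against 3555, 3765 and 379. Day 2 replicate 3 was the lowest library for both, and uninjured glands varied among themselves by over 2-fold. Outside the list, Lipo1, a member of the acid lipase family, had 38273, 8613 and 15641, against 3080.1, 1671 and 138, but its change lost significance without day 2 replicate 3. Esp16, an exocrine gland-secreted peptide, had 15873, 6839 and 9154, against 5513, 4095 and 2002, and Car6, the secreted carbonic anhydrase, 14613, 32520.0 and 12191, against 8182, 9145 and 6531. Mup4, a lipocalin also outside the list, had 4279.7, 3067 and 3081, against 1011, 1176 and 791, still below the 11387, 6788 and 7416 of uninjured glands. Mup5 had 218, 650.1 and 49.3, against 7.26, 2.52 and 2.43, and exceeded day 0. Its mean was 12.8 on day 0, 11.4 on day 1, 12.3 on day 4 and 5.64 on day 5. Whether its level belongs to the animals of day 3, as set out for Mup10 above, was not tested. Secretoglobin, Esp and Mup genes are families of near-identical copies, and the estimated counts may split reads between copies. Aqp5, the apical water channel of acinar cells, had a change of 0.26 (SE 0.08), and none of 19 genes of water and ion transport passed the test.

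Genes of sterol and fatty acid synthesis rose, and the list's median relative to day 0 was 0.61 on day 3 and -0.05 on day 2. Of 30 tested members, 7 rose and none fell (median 0.59), and 21 had all mice of day 3 above all mice of day 2, against 17.1% of all genes. Among them were Scd2, Insig1, Sqle, Fdps, Idi1 and Dhcr7. Scd2, a stearoyl-CoA desaturase, had 2139, 6649 and 4779.6 on day 3, against 1608, 1874 and 1183 on day 2 (change 1.42, SE 0.33), and 1132, 1287 and 1379 in uninjured glands. Sqle, squalene epoxidase, had 90.1, 143 and 125, against 42.8, 49.2 and 41.6 (change 1.38, SE 0.24). Insig1, the sterol-sensitive brake on the pathway, had 359, 1024 and 695, against 294, 291 and 161. Sqle in the mice of day 3 lay above the 23 other libraries, and 8 members of the list were above day 0 on day 3. The sterol regulatory element in the form TCACNCCAC was found in the window of 1 of 20 members with a window, Hmgcs1, and for 1.35% of all tested genes. With libraries scaled to their totals 3 members rose.

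Other single genes rose outside these lists. Zbtb16, a zinc finger repressor that glucocorticoids induce, had 375, 306 and 385 on day 3, against 20.7, 20.0 and 30.1 on day 2 (change 3.87, SE 0.35, adjusted p = 2.2e-07), and 19.3, 59.5 and 50.7 in uninjured glands. It averaged 138 and 282 on days 4 and 5. Of the 16 genes of glucocorticoid response and fasting 4 rose and 6 fell. Fkbp5, another such target, had 352, 291 and 370.1, against 133, 160.1 and 199.96 (change 1.05, SE 0.27), while Cebpd had 22.3, 21.1 and 25.5, against 109, 88.4 and 125. Cdkn1a, the cell cycle inhibitor p21, had 19.5, 20.0 and 12.2, against 146, 108 and 160.2 (change -2.94, SE 0.33). The count of 4 became 1 without day 3 replicate 3 and 2 without day 2 replicate 1. Of 23 genes of the ATF4 pathway and amino acid supply 2 rose (8.70%, against 1.06% of all tested genes). Another 2 of the 23 fell (8.70%, near the 8.18% of all tested genes). With each library left out in turn 0 to 1 fell and 1 to 3 rose, with none falling without day 2 replicate 3 or day 3 replicate 1. Cth, which makes cysteine, had 73.4, 68.9 and 87.7, against 27.1, 33.4 and 27.7, with 73.7, 72.0 and 89.7 in uninjured glands. None of 25 genes of ER folding passed the test (median 0.60). All mice of day 3 lay above all mice of day 2 for 21 of them, against 17.1% of all tested genes. Hspa5, the ER chaperone BiP, had 12900.0, 7984 and 8493, against 5546, 6692 and 4739, a change of 0.77 (SE 0.15) under the 2-fold limit.

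Of 9 T and NK cell markers 4 fell (median -1.26), and 2 without day 2 replicate 2, day 2 replicate 3, day 3 replicate 1 or day 3 replicate 3. Gzma (granzyme A) had 13.01, 16.7 and 7.14 on day 3, against 32.1, 35.0 and 37.9 on day 2. Of 10 B and plasma cell markers 1 fell, near the share of all tested genes, and none without day 2 replicate 1, day 2 replicate 3 or day 3 replicate 2. It was Ms4a1 (CD20), which had 4.65, 0 and 6.12, against 12.1, 6.67 and 16.3. None of 14 endothelial markers passed the test (median -0.59), although all mice of day 3 lay below those of day 2 for 10 of them, against 20.3% of all genes. Of 11 myoepithelial and basal genes 1 fell (9.09%, near the 8.18% of all tested genes). It was Krt17, with 34.7, 49.2 and 35.9, against 113, 90.5 and 83.9. Of 17 luminal epithelial genes 1 fell (5.88%, under the 8.18% of all tested genes), and none without day 3 replicate 1. It was Cldn4, with 16.7, 32.2 and 27.5, against 101, 72.6 and 76.5. Of 18 immediate early genes 4 fell, and Fos had 2.79, 11.1 and 12.2, against 57.8, 36.7 and 24.1.

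The later days place these levels. The mean over the interferon list relative to day 0 was 2.99 on day 1, 1.99 ± 0.37 on day 2, 0.09 ± 0.56 on day 3, 1.14 on day 4 and 1.37 on day 5 (SD, n = 3 except 2 on day 4). The highest mouse of day 3, at 0.71, lay below the lowest of the 5 libraries of days 4 and 5, at 1.06. Of 42 lists, 18 had their 3 libraries of day 3 below the 5 libraries of days 4 and 5, 3 had them above, and 21 overlapped. With day 4 replicate 1 counted as well, a choice made after seeing the data, 11 lists lay below, 2 above, and 29 overlapped. Macrophage markers were among those below in both counts, at 1.00 to 1.11 on day 3, and at 1.195 to 1.86 on days 4 and 5, and so were complement, adhesion, inflammasome and protease lists. Collagen chains and mitosis genes lay below only without day 4 replicate 1. The lists above were secretory products and sterol synthesis in both counts, and ribosomal proteins only without day 4 replicate 1. Neutrophil markers overlapped, at 1.04 to 1.46 on day 3, and at 1.23 to 2.49 on days 4 and 5. These are levels without a test, and the set-apart genes of the day 3 mice described above move with them.

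**Figure D5:**
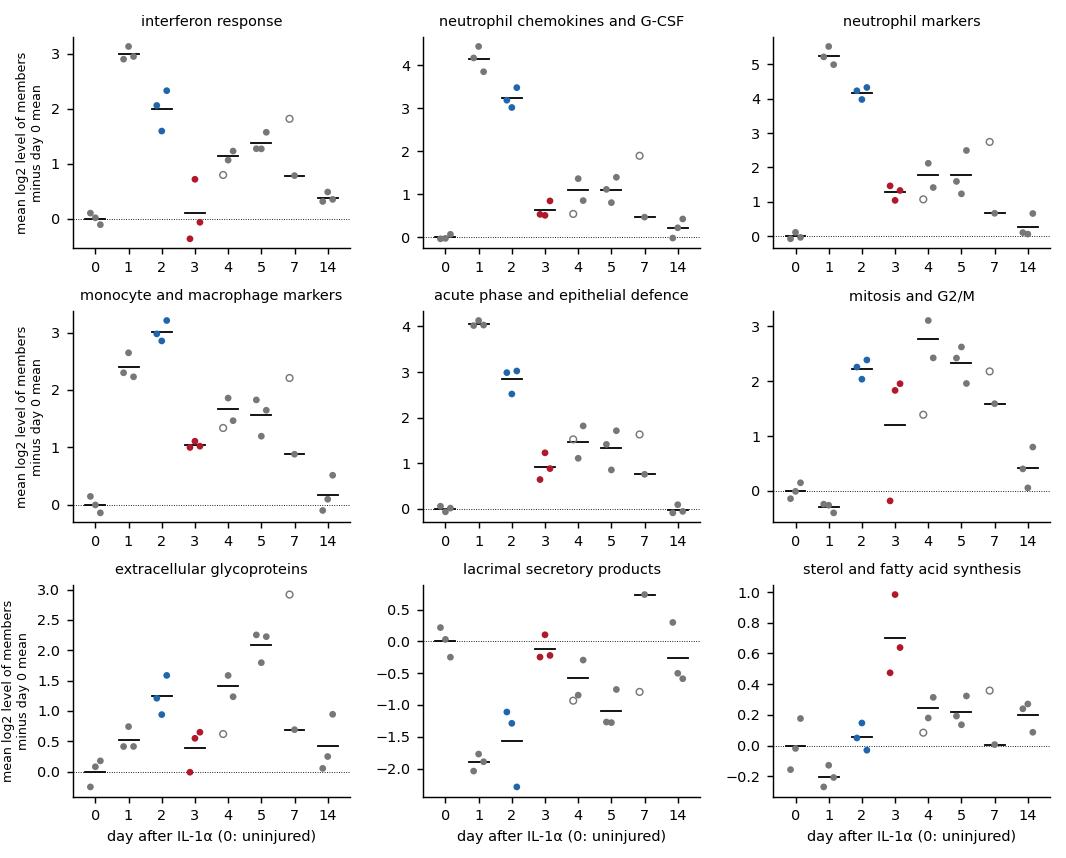
Mean log2(normalized value + 1) over the tested members of 9 lists in each library, minus the day 0 mean, by day after IL-1α; red points are day 3, blue points day 2, grey points other days, open circles libraries left out of the fit, and black lines the mean of the fitted libraries. Immune lists fall between days 2 and 3 and the interferon list is higher again on days 4 and 5, while secretory and sterol lists are higher on day 3 than on day 2.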

How the data were processed

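Total RNA of whole lacrimal glands was sequenced from 27 mice, and 26 libraries with values were read here; day 7 replicate 2 was not analysed here. Per the labels and the study's methods, the authors aligned stranded mRNA libraries with STAR to mm10, estimated gene counts with RSEM and divided each library by 1 DESeq2 factor; tool versions are not given in the sources used here. The deposited values are therefore a normalized signal per gene and not counts, so no count model was fitted. They were tested as log2(value + 1) with limma 3.58.1 (R 4.3.3, trend), with 1 coefficient for each of 9 groups and 24 libraries. The libraries left out were day 4 replicate 1 and day 7 replicate 1, which the study excluded; day 2 replicate 3, excluded there too, was kept because it belongs to the comparison. A gene was tested where 2 or more libraries had a value of 10 or more. The calling rule combined a Benjamini-Hochberg adjusted p up to 0.05 with a 2-fold minimum change. On data simulated for this comparison over 13818 genes, the fit called 89% of genes changed by 1.2 on the log2 scale and 100% of those changed by 2. The changed genes were drawn from those with a day 2 level above 50, with normal noise on the log2 scale. Detection of changes at lower levels was not simulated.

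Genes, lists and tests were chosen with earlier results of these data known. Named genes were the 10 largest called changes in each direction with groups that do not overlap, predicted genes left out, up to 4 called members of each list and up to 2 of the opposite direction, genes the study names for these days, and Zhx2 with its known targets. Of the other genes in the text, those with a value were chosen after their values were seen. No column of unmatched samples was used (0). Promoter windows came from RefSeq (GRCm38.p6), with 10350 tested genes matched by symbol. Alternatives changed the libraries, filter, pseudocount, scaling, threshold and replicate block. Mouse numbers name separate animals, and the deviations of mice with the same number correlated at -0.13, -0.15 and 0.10, so they do not pair.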

Additional observations from a re-analysis of the deposited data

Results flagged for a closer look

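Day 4 replicate 1 and day 7 replicate 1 did not enter the main fit, and they carried signals above all uninjured glands. The values are means over a list of log2(value + 1) minus the day 0 mean. In day 4 replicate 1 they were 0.793 for interferon genes, 1.07 for neutrophil markers, 0.541 for neutrophil chemokines, 1.34 for macrophage markers and 0.925 for CC chemokines. In day 7 replicate 1 they were 1.81 for interferon genes, 2.74 for neutrophil markers, 1.90 for neutrophil chemokines, 2.21 for macrophage markers and 2.05 for CC chemokines. Day 7 replicate 1 also had 2.64 for skeletal muscle and 0.358 for sterol and fatty acid synthesis.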

How the results depend on the processing

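Requiring a value of at least 50 gave 806 changed genes, 699 of them lower, with 7 neutrophil chemokine, 11 neutrophil marker and 15 muscle genes lower, since fewer genes were tested. Scaling to totals gave 1978 changed genes, 80 higher and 1898 lower, and 3 sterol genes higher. An adjusted p alone gave 3466, 1524 higher and 1942 lower, and 15 sterol genes higher. Leaving out each library in turn gave 911 to 1348 changed genes, 112 to 178 higher and 799 to 1183 lower. It gave 35 to 40 interferon genes lower, 10 to 11 neutrophil chemokines, 17 neutrophil markers, 8 to 11 CC chemokines, 25 to 27 macrophage markers and 24 to 27 muscle genes, with 10 to 13 secretory and 5 to 8 sterol genes higher. The lowest totals came without day 2 replicate 3. Then 35 interferon, 10 neutrophil chemokine, 9 CC chemokine, 25 macrophage and 24 muscle genes were lower, and 11 secretory and 5 sterol genes higher. So were 8 MHC class I, 6 adhesion, 6 complement, 3 prostanoid and leukotriene, 4 IL-6 family and 9 acute phase genes lower. The inflammasome list had 13 lower, glycoproteins 5, epithelial-mesenchymal transition 5, resolution and efferocytosis 6, and glucocorticoid and fasting 5. With a replicate block 1289 genes changed, 155 higher and 1134 lower. The log2 change of Lpl was 0.066 with the 23 libraries the study kept, and between -0.34 and 0.20 with single libraries left out. That of Gpc3 was -0.10 when scaled to totals, and between -0.045 and 0.56 with single libraries left out. The cause was not tested. Values of a few reads limit what low genes such as Csf3 can show, and 3 mice a day limit small changes.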

Other observations

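Genes used by every cell moved little. None of 27 ribosomal protein genes and none of 26 nuclear genes of oxidative phosphorylation passed the test (limma), with median changes of -0.06 and 0.23. With libraries scaled to their totals these medians were -0.41 and -0.13. For oxidative phosphorylation 24 changes were above 0. All mice of day 3 lay above all mice of day 2 for 11 of the 26, against 17.1% of all tested genes. Of 18 circadian clock genes, 1 fell (Dbp), none without day 3 replicate 1. This is 5.56% of the list, under the 8.18% of all tested genes. Of 17 genes of resolution and efferocytosis, 7 fell and none rose, with a median of -0.90, and all mice of day 3 lay below those of day 2 for 15 of them, as for 20.3% of all tested genes.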
